A study of Rattus norvegicus with 4 samples.

Results

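The p53 target genes described here are a list of 36 genes that carry out the p53 response: cell cycle arrest, cell death, DNA repair, metabolism and feedback on p53 itself. A gene belonged to the list by its symbol alone, and 34 of the 36 symbols were found among the 15731 genes of the expression table. Rprm and Tigar were not found under these symbols and are not analysed here. The list was drawn up with fold changes of these same libraries known, so the values below describe the genes and no test is given on them.

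The study examined what each microRNA of the miR-106b~25 cluster does to gene expression in heart muscle cells. RNA-seq was performed on ventricular cardiomyocytes from wild-type Wistar rats at postnatal day 1, although one protocol note gives the day of birth. The cells had been transfected with a mimic of human miR-25-3p (hsa-miR-25-3p), miR-93-5p (hsa-miR-93-5p) or miR-106b-5p (hsa-miR-106b-5p), or with the nematode microRNA cel-miR-67 as control. A mimic is a synthetic RNA that acts as the mature microRNA. All 4 cultures received the lipid reagent Lipofectamine RNAiMAX and one mimic at 25 nM by one note (another gives the same figure in mM), and RNA was taken 72 h later. Each mimic is represented by 1 library, so no value below has a replicate check. The cells were enriched for cardiomyocytes by letting other cells attach first, and whether the hearts were pooled or the cultures made apart was not stated.

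p53 is a transcription factor that accumulates when DNA is damaged, ribosomes are disturbed or cells are otherwise stressed, and that binds response elements made of a pair of short palindromic decamers. Its targets halt the cell cycle, repair DNA, limit growth or kill the cell, and some of them, above all Mdm2, return to restrain p53. In heart muscle the pathway is best known from doxorubicin toxicity and from cell death after ischaemia.

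The mature sequences are shown because they set the mimics apart: the seed, bases 2 to 8, is given in capitals and is the part that pairs with target transcripts. They are the rat forms of RefSeq (assembly GRCr8), which lie on the minus strand at chr12:22157103-22157123, chr12:22156894-22156916 and chr12:22156652-22156673 in the order printed. miR-106b and miR-93 have the same seed, and miR-25 has another one.
rno-miR-106b-5p: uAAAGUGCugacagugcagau
rno-miR-93-5p: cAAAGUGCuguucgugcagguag
rno-miR-25-3p: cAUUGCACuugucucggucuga

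Promoter windows were read for the p53 target genes from the same assembly, 250 bases before to 50 bases after each annotated start, and 30 of the 36 symbols had one (31 windows, since Gdf15 has more than 1). No window was found for Tnfrsf10b, Tp53inp1, Ddb2, Rrm2b, Zmat3 and Cd82. The p53 decamer consensus, 10 bases that read the same on both strands, was present in 7 of the 31 windows (22.6%), beside 7.98% of all 33469 windows and 566 of the 8713 windows of genes tested with miR-25. A response element was counted where a pair of adjoining decamers, 20 bases, held no more than 3 mismatches and kept its invariant C and G bases, so that the searches overlap. It was present in 6 of the 31 windows (19.4%), beside 1.34% of all windows and 131 of the 8713 of genes tested with miR-25. Such a match is a stretch of letters and not a measured binding site.

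The windows of Cdkn1a, Ccng1, Aen and Pidd1 held the closest matches and belong to genes that were upregulated with miR-25 (below), so they are printed, 5′ to 3′ along each gene. Capitals mark the response element, for Pidd1 together with an overlapping exact decamer. The match had 1 mismatch in Cdkn1a, from base -201 to -182 of the start, and 1 in Ccng1, from -242 to -223. It had 2 mismatches in Aen, from -30 to -11, and 2 in Pidd1, from 11 to 30 after the start. The windows span chr20:7150682-7150981 on the plus strand, chr10:25684827-25685126 on the minus strand, chr1:142224283-142224582 on the plus strand and chr1:205971551-205971850 on the minus strand, in the order printed.
Cdkn1a: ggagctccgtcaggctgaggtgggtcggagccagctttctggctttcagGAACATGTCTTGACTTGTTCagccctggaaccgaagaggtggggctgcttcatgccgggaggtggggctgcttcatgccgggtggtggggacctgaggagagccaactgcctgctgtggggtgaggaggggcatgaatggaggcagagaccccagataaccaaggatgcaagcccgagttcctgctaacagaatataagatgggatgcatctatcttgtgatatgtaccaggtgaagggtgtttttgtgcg
Ccng1: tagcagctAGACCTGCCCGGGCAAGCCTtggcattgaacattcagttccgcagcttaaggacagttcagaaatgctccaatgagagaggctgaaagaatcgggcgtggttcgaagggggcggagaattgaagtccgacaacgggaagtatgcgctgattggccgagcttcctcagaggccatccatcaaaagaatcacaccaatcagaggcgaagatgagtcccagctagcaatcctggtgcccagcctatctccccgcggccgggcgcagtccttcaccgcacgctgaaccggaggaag
Aen: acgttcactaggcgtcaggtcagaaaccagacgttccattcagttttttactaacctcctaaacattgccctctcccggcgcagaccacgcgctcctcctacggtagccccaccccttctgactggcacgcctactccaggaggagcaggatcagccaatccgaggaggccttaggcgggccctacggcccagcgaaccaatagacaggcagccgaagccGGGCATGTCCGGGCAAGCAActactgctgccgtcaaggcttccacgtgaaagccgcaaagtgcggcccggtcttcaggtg
Pidd1: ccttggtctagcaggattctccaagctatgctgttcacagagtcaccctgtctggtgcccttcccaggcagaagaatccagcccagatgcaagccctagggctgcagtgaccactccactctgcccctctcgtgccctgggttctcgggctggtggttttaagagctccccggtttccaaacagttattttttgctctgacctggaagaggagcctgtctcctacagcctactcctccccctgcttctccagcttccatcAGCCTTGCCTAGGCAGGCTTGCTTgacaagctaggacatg

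The other matches were in Pmaip1, from -170 to -151, and in Sesn1, from -172 to -153, with 3 mismatches each. An exact decamer outside any such element was found in Ei24, from -79 to -70, and in Gadd45a, from -48 to -39. The remaining windows held neither. Of the 6 genes with a response element, 5 were upregulated past 1.3-fold with miR-25, Sesn1 being the exception, and of the 21 tested genes whose window held none, 9 were. Of all genes tested, 19.3% were upregulated with miR-25. How many genes outside the list with such an element were upregulated was not counted, and a link between element and rise was not tested. These counts are a description, with no test. The map of these matches shows that they were scattered over the window, from the far upstream edge in Ccng1 to the first bases of the transcript in Pidd1.

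**Figure D1:**
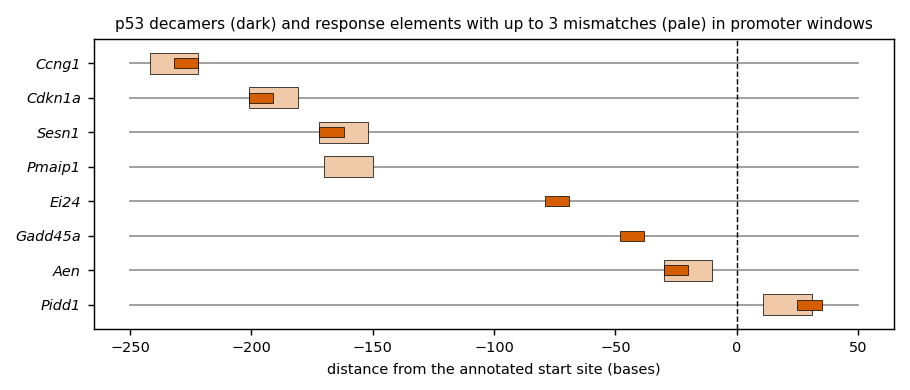
Position of p53 decamers (dark) and response elements with up to 3 mismatches (pale) in the promoter windows of the p53 target genes that hold one. The x axis is the distance in bases from the annotated start, each row is 1 gene, and the 8 genes lie with matches between base -242 and base 34.

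Levels are given as RPKM, reads scaled to transcript length and library size, so that genes can be compared per length. Differences are log2 ratios of RPKM without a pseudocount, taken where a gene exceeded 1.0 RPKM in both libraries, and a gene is called upregulated or downregulated past 1.3-fold. The 95% intervals are exact Clopper-Pearson intervals from the whole reads behind each RPKM value. They reflect counting error alone, without the spread between cultures, and each comparison is between a pair of libraries. The 15731 genes of the expression table, called the listed genes below, held 15175185 to 18797234 reads per library. This was 60.4% to 66.9% of the library size, and 74 to 198 of these genes were at 0.

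In the control library the p53 target genes spanned from the RPKM cutoff to well-expressed transcripts. Ccng1, which encodes cyclin G1, stood at 199 RPKM, rank 256 of all genes, and Plk2, a polo-like kinase, at 178 RPKM, rank 276. Phlda3, Btg2, Gadd45a, Tp53inp1 and Perp followed between 45.6 and 23.3 RPKM. The lowest were Tnfrsf10b and Plk3, both at 1.02 RPKM and carried by 57 and 55 reads. In the plot of levels by library the miR-25 point lay to the right of the other 3 for 18 of the 31 genes above 1.0 RPKM in every library. Of all 10984 genes above that level in every library, 34.5% were highest with miR-25.

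**Figure D2:**
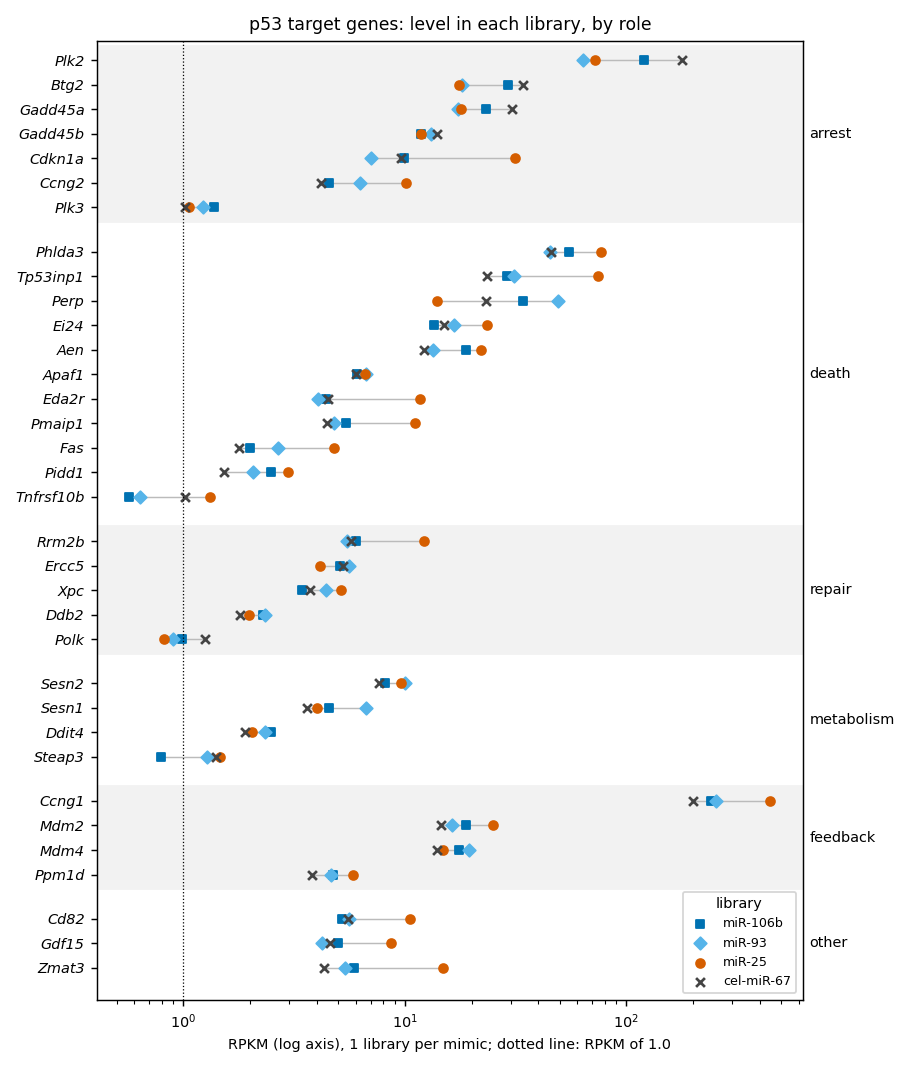
RPKM of the 34 p53 target genes in the 4 libraries, on a log axis, grouped by role, with 1 point per library and the RPKM cutoff of 1.0 marked. Ccng1 and Plk2 are the most abundant, and miR-25 has the highest value for 18 of the 31 genes above the cutoff in every library, beside 34.5% of all such genes.

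With miR-25 most p53 target genes were upregulated. Of the 33 genes above 1.0 RPKM in both libraries, 18 were upregulated and 4 downregulated over the control, which is 54.5% and 12.1%. Among all 11198 genes tested the shares were 19.3% upregulated and 22.6% downregulated. The median log2 fold change of the p53 target genes was 0.61, beside -0.01 for all genes. The rises included the arrest gene Cdkn1a, the death receptor genes Fas and Eda2r and the feedback genes Mdm2 and Ccng1, and the falls were those of Plk2, Btg2, Gadd45a and Perp. The cardiomyocyte markers described at the end summed to 7133 RPKM in this library, beside 13212 RPKM in the control, and in RNA of whole cultures fewer cells of a type and less RNA per cell cannot be told apart.

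With miR-106b and miR-93 fewer of the p53 target genes passed the cutoff. miR-106b left 6 of 31 genes upregulated and 2 downregulated (19.4% and 6.45%), beside 11.9% and 12.7% of all genes tested. miR-93 left 8 of 32 upregulated and 4 downregulated (25.0% and 12.5%), beside 15.1% and 15.6% of all genes. The median log2 fold change was 0.17 in each case, with a median of 0.00 for all genes. The libraries were also scaled to the reads on listed genes, meaning all genes of the table. This moved the median of all genes by 0.08 for miR-106b and by 0.15 for both other mimics. The counts became 11 up and 1 down with miR-106b, 15 up and 3 down with miR-93 and 20 up and 4 down with miR-25. That scaling raises every gene of a comparison alike, so the shares of all genes shift too. Those shares were not counted, so these counts cannot be set beside the shares above. Under that scaling the falls of Gadd45a with miR-106b and of Cdkn1a with miR-93, then at -0.30 and -0.31, were no longer past the cutoff. All 3 comparisons share the control library.

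**Figure D3:**
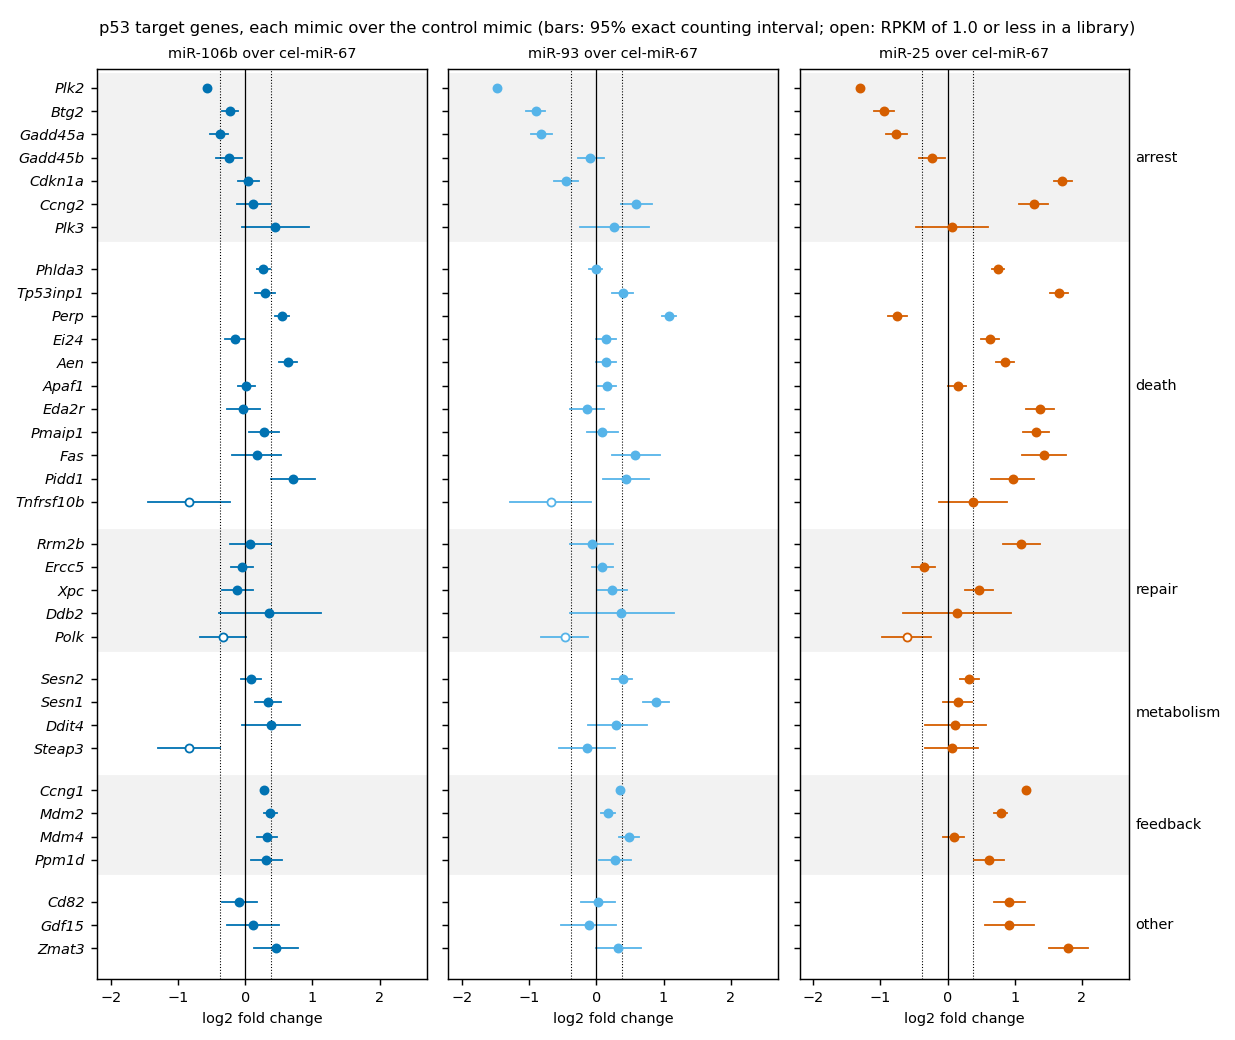
Log2 fold change of each p53 target gene under the 3 mimics over the cel-miR-67 control, grouped by role. Points are ratios of RPKM, bars are 95% exact counting intervals, dotted lines mark 1.3-fold, and open points had 1.0 RPKM or less in a library. In the miR-25 panel 18 genes lie to the right of the cutoff and Plk2, Btg2, Gadd45a and Perp to the left, as does the open point of Polk.

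The arrest genes split. Of 7 tested, miR-25 upregulated 2 and downregulated 3 (28.6% and 42.9%, median log2 fold change -0.23), beside 19.3% and 22.6% of all genes tested. miR-93 upregulated 1 and downregulated 4 (14.3% and 57.1%, median -0.45), beside 15.1% and 15.6%. miR-106b upregulated 1 and downregulated 2 (14.3% and 28.6%, median -0.22), beside 11.9% and 12.7%. Cdkn1a encodes p21, the inhibitor of cyclin-dependent kinases through which p53 halts the cell cycle. Its level was 9.61 RPKM in the control, 9.90 in the miR-106b library, 7.02 in the miR-93 library and 31.5 in the miR-25 library. The miR-25 library was far above the others and the miR-93 library the lowest. Cdkn1a rose 3.28-fold with miR-25, a log2 fold change of 1.71 (95% interval 1.58 to 1.85), and fell 1.37-fold with miR-93, -0.45 (95% interval -0.63 to -0.28). The miR-106b library was level with the control, at 0.04 (95% interval -0.11 to 0.20). Ccng2, which encodes the unconventional cyclin G2 that slows the cycle, measured 4.18 RPKM in the control, 4.54 in the miR-106b library, 6.28 in the miR-93 library and 10.1 in the miR-25 library. It was upregulated with miR-25, at 1.28 (95% interval 1.06 to 1.5), and with miR-93, at 0.59 (95% interval 0.36 to 0.83), and it was within the cutoff with miR-106b (0.12).

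Plk2, Btg2 and Gadd45a moved the other way and were highest in the control library. Plk2 encodes a polo-like kinase that acts on centrioles and in stress checkpoints, and its level was 178 RPKM in the control, 120.4 in the miR-106b library, 63.9 in the miR-93 library and 72.3 in the miR-25 library. The log2 fold change was -0.57 (95% interval -0.60 to -0.53) with miR-106b, -1.48 (95% interval -1.53 to -1.43) with miR-93 and -1.30 (95% interval -1.35 to -1.25) with miR-25, the largest fall of any p53 target gene with each mimic among genes tested. Btg2, an antiproliferative cofactor of mRNA deadenylation, measured 34.0 RPKM in the control, 29.2 in the miR-106b library, 18.2 in the miR-93 library and 17.6 in the miR-25 library. It was downregulated with miR-93, -0.90 (95% interval -1.05 to -0.76), and with miR-25, -0.95 (95% interval -1.10 to -0.80), and the miR-106b library lay between these and the control. Gadd45a encodes a stress sensor that inhibits the mitotic kinase complex, and it measured 30.4 RPKM in the control, 23.3 in the miR-106b library, 17.3 in the miR-93 library and 17.9 in the miR-25 library. Its log2 fold change was -0.82 (95% interval -0.97 to -0.66) with miR-93, -0.77 (95% interval -0.92 to -0.61) with miR-25 and -0.38 (95% interval -0.52 to -0.25) with miR-106b, the last of these just past the cutoff.

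Plk3, a checkpoint kinase of the same family as Plk2, was close to the RPKM cutoff at 1.02 RPKM in the control, 1.38 in the miR-106b library, 1.23 in the miR-93 library and 1.06 in the miR-25 library. It was called upregulated with miR-106b at 0.44 (95% interval -0.05 to 0.95), but its 55 to 98 reads gave an interval that includes 0. Gadd45b, a relative of Gadd45a, stayed between 11.8 and 13.9 RPKM and within the cutoff with every mimic. Among the 31 p53 target genes above 1.0 RPKM in every library, 4 (12.9%) had their highest value in the control, beside 2590 of all 10984 such genes. They were Plk2, Btg2, Gadd45a and Gadd45b, all 4 arrest genes. Gadd45b was close to the control with miR-93, at -0.09 (95% interval -0.28 to 0.11). The control was the lowest library for 17 of the 31, beside 22.8% of all genes. Every rise over the control rests on this 1 library.

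Death genes, the largest role, had the most calls by number. miR-25 upregulated 8 of 11 (72.7%) and downregulated 1 (9.09%), beside 19.3% and 22.6% of all genes tested. The median log2 fold change was 0.86. The share upregulated was no smaller in the feedback genes (75.0%) and in the genes outside the named roles (100%). miR-106b upregulated 3 of 10 and miR-93 upregulated 4 of 10, beside 11.9% and 15.1% of all genes. Neither downregulated any, beside 12.7% and 15.6% of all genes. The receptors come first. Fas, the receptor of Fas ligand, measured 1.78 RPKM in the control, 2.00 in the miR-106b library, 2.67 in the miR-93 library and 4.80 in the miR-25 library. Its log2 fold change was 1.43 (95% interval 1.11 to 1.76) with miR-25 and 0.58 (95% interval 0.23 to 0.95) with miR-93. Eda2r, a receptor of the TNF receptor family that binds ectodysplasin A2, measured 4.48 RPKM in the control, 4.40 in the miR-106b library, 4.06 in the miR-93 library and 11.7 in the miR-25 library. Only the miR-25 library stood apart, with a rise of 1.38 (95% interval 1.17 to 1.59), while miR-106b and miR-93 gave -0.03 and -0.14. Tnfrsf10b, the TRAIL receptor, measured 1.02 RPKM in the control and 1.32 with miR-25, which fell just short of the cutoff, and it was under 1.0 RPKM with the other mimics.

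The genes that act inside the cell followed. Pmaip1 encodes Noxa, a BH3-only protein that opens the mitochondrial route of apoptosis. It measured 4.47 RPKM in the control, 5.43 in the miR-106b library, 4.77 in the miR-93 library and 11.1 in the miR-25 library, a rise of 1.31 (95% interval 1.12 to 1.51) for miR-25 beside 0.28 for miR-106b and 0.09 for miR-93. Pidd1, the scaffold of the PIDDosome that activates caspase-2, was upregulated by all 3 mimics. Its level was 1.53 RPKM in the control, 2.49 in the miR-106b library, 2.07 in the miR-93 library and 2.98 in the miR-25 library, and the log2 fold changes were 0.71 (95% interval 0.38 to 1.04) for miR-106b, 0.44 (95% interval 0.10 to 0.79) for miR-93 and 0.97 (95% interval 0.65 to 1.29) for miR-25. Apaf1, the core of the apoptosome, stayed between 6.00 and 6.70 RPKM.

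Aen, an apoptosis-enhancing nuclease, was called with miR-106b as well as miR-25. It measured 12.2 RPKM in the control, 18.9 in the miR-106b library, 13.4 in the miR-93 library and 22.1 in the miR-25 library, with log2 fold changes of 0.64 (95% interval 0.50 to 0.77) for miR-106b and 0.86 (95% interval 0.72 to 0.99) for miR-25. The miR-93 library, at 0.14, was near the control. Tp53inp1, a nuclear stress protein that also takes part in autophagy, measured 23.5 RPKM in the control, 28.9 in the miR-106b library, 31.0 in the miR-93 library and 74.3 in the miR-25 library. It rose 3.16-fold with miR-25, 1.66 (95% interval 1.52 to 1.80), and 1.32-fold with miR-93, 0.40 (95% interval 0.24 to 0.55), and miR-106b gave 0.29. Phlda3, a pleckstrin homology protein that opposes Akt at the membrane, measured 45.6 RPKM in the control, 55.1 in the miR-106b library, 45.3 in the miR-93 library and 76.6 in the miR-25 library. Only the miR-25 library passed the cutoff, at 0.75 (95% interval 0.66 to 0.84). Ei24, an endoplasmic reticulum protein also linked to autophagy, measured 15.1 RPKM in the control, 13.5 in the miR-106b library, 16.6 in the miR-93 library and 23.4 in the miR-25 library, with 0.63 (95% interval 0.50 to 0.77) for miR-25.

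Perp went against the rest of the role. It encodes a tetraspan membrane protein that is both a death effector and a component of desmosomes. It measured 23.3 RPKM in the control, 34.0 in the miR-106b library, 49.1 in the miR-93 library and 13.9 in the miR-25 library. The miR-106b and miR-93 libraries were above the control and the miR-25 library was below it. Its log2 fold change was 0.55 (95% interval 0.44 to 0.66) with miR-106b, 1.08 (95% interval 0.97 to 1.18) with miR-93 and -0.75 (95% interval -0.89 to -0.61) with miR-25. Perp was the p53 target gene with the largest rise with miR-93.

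Among the repair genes miR-25 upregulated 2 of 4 tested, beside 19.3% of all genes. Neither miR-106b nor miR-93 moved any of the 4 tested past the cutoff. Rrm2b encodes the p53-induced subunit of ribonucleotide reductase that supplies nucleotides for repair. It measured 5.74 RPKM in the control, 6.03 in the miR-106b library, 5.47 in the miR-93 library and 12.2 in the miR-25 library, with the miR-25 library alone high and a log2 fold change of 1.09 (95% interval 0.82 to 1.37). Xpc, which recognises lesions at the start of nucleotide excision repair, measured 3.74 RPKM in the control, 3.45 in the miR-106b library, 4.42 in the miR-93 library and 5.17 in the miR-25 library and had 0.47 (95% interval 0.26 to 0.68) with miR-25. Ercc5, the endonuclease of the same pathway, measured 5.27 RPKM in the control, 5.11 in the miR-106b library, 5.62 in the miR-93 library and 4.12 in the miR-25 library, within the cutoff over the control with each mimic. Ddb2, the ultraviolet damage sensor, was carried by only 25 to 42 reads and stayed between 1.80 and 2.33 RPKM. Polk, a translesion polymerase, exceeded 1.0 RPKM only in the control, at 1.25 RPKM, and was not tested.

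The metabolism genes were the role without any call for miR-25 (0 of 4, median 0.13), while miR-93 upregulated 2 of 4 and miR-106b 1 of 3. Of all genes tested, 19.3% were upregulated with miR-25, 15.1% with miR-93 and 11.9% with miR-106b. Sesn1 and Sesn2 encode sestrins, which restrain the growth kinase mTORC1 when amino acids or energy are short. Sesn1 measured 3.61 RPKM in the control, 4.57 in the miR-106b library, 6.68 in the miR-93 library and 4.01 in the miR-25 library. The miR-93 library was the highest, at 0.89 (95% interval 0.70 to 1.08), with 0.34 for miR-106b and 0.15 for miR-25. Sesn2 measured 7.63 RPKM in the control, 8.13 in the miR-106b library, 9.97 in the miR-93 library and 9.56 in the miR-25 library, and only miR-93 passed the cutoff, just, at 1.31-fold, 0.39 (95% interval 0.24 to 0.53). Ddit4, another inhibitor of mTORC1, measured 1.90 RPKM in the control, 2.48 in the miR-106b library, 2.34 in the miR-93 library and 2.05 in the miR-25 library. It was called with miR-106b at 0.39 (95% interval -0.04 to 0.82), an interval that includes 0 from 74 to 127 reads. Steap3, an endosomal iron reductase, ranged from 0.796 RPKM with miR-106b, where it was not tested, to 1.47 RPKM with miR-25.

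Of the 4 feedback genes, which act back on p53, miR-25 upregulated 3 (median 0.70), miR-93 upregulated 1 and miR-106b none. The shares of all genes upregulated were 19.3%, 15.1% and 11.9% in the same order. Mdm2, the ubiquitin ligase that degrades p53, measured 14.5 RPKM in the control, 18.8 in the miR-106b library, 16.4 in the miR-93 library and 25.1 in the miR-25 library. It was lowest in the control, and the log2 fold change was 0.79 (95% interval 0.69 to 0.88) with miR-25 and, just short of the cutoff at 1.29-fold, 0.37 (95% interval 0.28 to 0.47) with miR-106b. Ccng1, whose product recruits a phosphatase to Mdm2, measured 199 RPKM in the control, 241 in the miR-106b library, 253 in the miR-93 library and 447 in the miR-25 library. It held 18317 to 49575 reads, the most of any p53 target gene, so its interval was the narrowest, at 1.17 (95% interval 1.15 to 1.20) for miR-25. The miR-106b and miR-93 values were 0.28 and 0.35, both within the cutoff. Ppm1d, the phosphatase Wip1 that switches off p53 and its kinases, measured 3.82 RPKM in the control, 4.75 in the miR-106b library, 4.63 in the miR-93 library and 5.84 in the miR-25 library, with 0.61 (95% interval 0.39 to 0.84) for miR-25. Mdm4, the relative of Mdm2 that masks the activation domain of p53, measured 13.9 RPKM in the control, 17.5 in the miR-106b library, 19.4 in the miR-93 library and 14.9 in the miR-25 library. Its one call was with miR-93, at 0.48 (95% interval 0.34 to 0.63), and miR-25 left it at 0.10.

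The last 3 genes fall outside these roles, and all 3 were upregulated with miR-25, beside 19.3% of all genes tested. Zmat3, an RNA-binding zinc finger protein that takes part in splicing, had the largest rise of all p53 target genes with miR-25. It measured 4.30 RPKM in the control, 5.89 in the miR-106b library, 5.36 in the miR-93 library and 14.9 in the miR-25 library, a 3.47-fold rise of 1.79 (95% interval 1.51 to 2.09), and it was also called with miR-106b at 0.46 (95% interval 0.13 to 0.78). Cd82, a tetraspanin known as a metastasis suppressor, measured 5.53 RPKM in the control, 5.20 in the miR-106b library, 5.62 in the miR-93 library and 10.5 in the miR-25 library, with 0.92 (95% interval 0.69 to 1.15) for miR-25. Gdf15, a secreted stress cytokine, measured 4.59 RPKM in the control, 4.98 in the miR-106b library, 4.25 in the miR-93 library and 8.65 in the miR-25 library, with 0.91 (95% interval 0.56 to 1.28) for miR-25. Neither Cd82 nor Gdf15 was past the cutoff with miR-106b or miR-93, where they lay between -0.11 and 0.12.

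Altogether 27 of the 34 p53 target genes passed the cutoff with at least 1 mimic over the control. The matching share of all genes was not counted, here or for the 2-fold cutoff below. With miR-25 alone, 19.3% of all genes tested were upregulated and 22.6% downregulated past 1.3-fold. The 7 that did not were Gadd45b, Tnfrsf10b, Apaf1, Ddb2, Polk, Ercc5 and Steap3. The intervals of all calls with miR-25 and with miR-93 excluded 0. At a 2-fold cutoff 9 of the 18 rises with miR-25 were left, those of Cdkn1a, Ccng2, Fas, Eda2r, Pmaip1, Tp53inp1, Rrm2b, Ccng1 and Zmat3, together with the fall of Plk2.

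The mimics were next compared with each other, which leaves the control library out. miR-25 over miR-106b gave 15 of 31 p53 target genes up and 5 down (48.4% and 16.1%), beside 22.1% and 23.0% of all genes tested, with a median log2 fold change of 0.30 beside 0.00. One of the 5 falls, that of Plk3 at -0.38 (95% interval -0.85 to 0.08), had an interval that includes 0. miR-25 over miR-93 gave 16 of 32 up and 4 down (50% and 12.5%), beside 22.1% and 23.0% of all genes, with a median of 0.41 beside -0.01. Both use the same miR-25 library. Cdkn1a was 3.18-fold higher with miR-25 than with miR-106b, 1.67 (95% interval 1.55 to 1.79), and 4.48-fold higher than with miR-93, 2.16 (95% interval 2.03 to 2.30). Ccng1 gave 0.89 (95% interval 0.87 to 0.92) and 0.82 (95% interval 0.80 to 0.85) in the same comparisons. Perp gave the opposite, at -1.29 (95% interval -1.42 to -1.17) over miR-106b and -1.82 (95% interval -1.94 to -1.70) over miR-93.

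Which genes were high with miR-25 against every other library can be read from the levels. Among the 31 p53 target genes above 1.0 RPKM in all 4 libraries, 18 (58.1%) were highest with miR-25, beside 34.5% of the 10984 genes that met the same cutoff. A difference of more than 1.3-fold above each of the other 3 libraries was seen for 14 of the 31, beside 10.7% of all genes. These were Cdkn1a, Ccng2, Fas, Eda2r, Pmaip1, Ei24, Phlda3, Tp53inp1, Rrm2b, Mdm2, Ccng1, Zmat3, Cd82 and Gdf15. Aen, Pidd1, Xpc and Ppm1d were also highest with miR-25 but lay within 1.3-fold of another mimic. Against miR-93, miR-25 was lower for Sesn1, at -0.74 (95% interval -0.91 to -0.57), Ercc5, at -0.45 (95% interval -0.61 to -0.28), and Mdm4, at -0.39 (95% interval -0.52 to -0.25). For the downregulated arrest genes Plk2, Btg2 and Gadd45a, miR-25 and miR-93 were close, with log2 ratios of 0.18, -0.05 and 0.05 between them.

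miR-93 and miR-106b, which share a seed, differed in fewer genes. miR-93 over miR-106b gave 4 of 31 p53 target genes up and 5 down (12.9% and 16.1%), beside 7.30% and 8.21% of all genes tested, and the median was -0.04. Scaled to the reads on listed genes the split was 5 up and 4 down, and the shares of all genes under that scaling were not counted. The higher genes with miR-93 were Sesn1, at 0.55 (95% interval 0.39 to 0.71), Perp, at 0.53 (95% interval 0.44 to 0.61), Ccng2, at 0.47 (95% interval 0.26 to 0.68), and Fas, at 0.41 (95% interval 0.10 to 0.73). Most of the lower ones were arrest genes: Plk2 at -0.91 (95% interval -0.96 to -0.86), Btg2 at -0.68 (95% interval -0.83 to -0.54), Cdkn1a at -0.50 (95% interval -0.66 to -0.33) and Gadd45a at -0.43 (95% interval -0.59 to -0.28). Aen, a death gene, was the fifth, at -0.49 (95% interval -0.62 to -0.37).

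**Figure D4:**
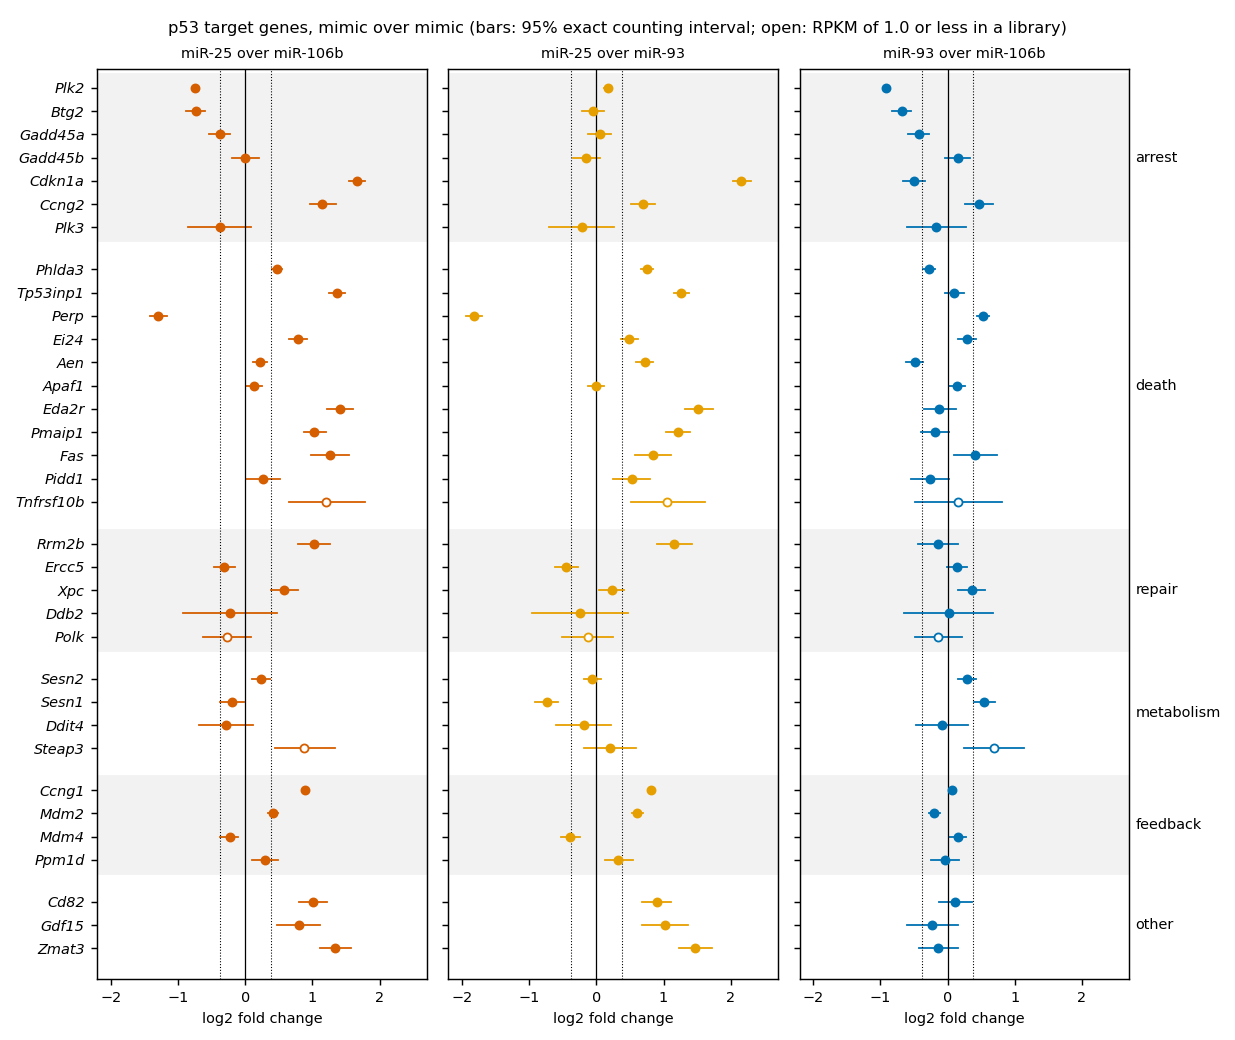
Log2 ratio of each p53 target gene between mimics: miR-25 over miR-106b, miR-25 over miR-93 and miR-93 over miR-106b, grouped by role. Points, bars, dotted lines and open points are as in the plot of fold changes over the control. In the first 2 panels Cdkn1a is above 1.6 and Perp below -1.2, and in the last panel Plk2 is the lowest, at -0.91.

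A list of regulators of p53 was counted in the same way. Of its 26 genes tested, 2 were upregulated and 5 downregulated with miR-25 (7.69% and 19.2%, median -0.07), beside 19.3% and 22.6% of all genes. Cdkn2a, the Ink4a and Arf locus whose Arf product blocks Mdm2, went from 1.42 to 3.10 RPKM, a log2 fold change of 1.13, and Trim24, a ubiquitin ligase of p53, from 2.65 to 3.62 RPKM, 0.45. The next in order, Tp53bp1 at 0.27, was within the cutoff. The largest falls were those of the deubiquitinases Usp28, from 17.9 to 10.5 RPKM, and Usp10, from 11.3 to 7.47 RPKM, and of the cofactor Ppp1r13b, from 2.94 to 2.01 RPKM. Of the same list, 1 was up and 1 down of 26 tested with miR-106b, beside 11.9% and 12.7% of all genes, and 1 up and 1 down of 25 with miR-93, beside 15.1% and 15.6%.

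A second list of p53 targets, with no gene in common with the first, was counted likewise. With miR-25, 8 of its 21 tested genes were upregulated and 4 downregulated (38.1% and 19.0%), beside 19.3% and 22.6% of all genes, with a median log2 fold change of 0.17. The largest rises were those of Abhd4, a lipid hydrolase, from 22.5 to 51.6 RPKM (1.20), Bax, the pore-forming death effector, from 15.4 to 31.6 RPKM (1.04), and Cpt1c, a carnitine palmitoyltransferase, from 1.94 to 3.79 RPKM (0.97). The largest falls were those of Pcna, the sliding clamp of DNA replication, from 60.5 to 34.4 RPKM (-0.81), Triap1, an inhibitor of apoptosis, from 37.0 to 25.7 RPKM (-0.53), and the adenylate kinase Ak1, from 45.9 to 34.0 RPKM (-0.43). miR-106b gave 4 up and 3 down of 22 (18.2% and 13.6%), beside 11.9% and 12.7% of all genes, and miR-93 gave 5 up and 4 down of 22 (22.7% and 18.2%), beside 15.1% and 15.6%. With the control left out, miR-25 over miR-106b gave 4 up and 3 down of 21 (19.0% and 14.3%), beside 22.1% and 23.0% of all genes. miR-25 over miR-93 gave 7 up and 4 down of 21 (33.3% and 19.0%), beside 22.1% and 23.0%. This list, too, was chosen with earlier results of these data known.

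Because Sesn2 and Ddit4 are also targets of ATF4, the transcription factor of the amino acid and unfolded protein responses, a list of ATF4 targets was set beside them. With miR-25, 12 of its 16 tested genes (75.0%) were downregulated, beside 22.6% of all genes, and none upregulated, with a median of -0.60. The largest falls were those of Stc2, a secreted glycoprotein, from 3.99 to 1.11 RPKM (-1.85), Vldlr, a lipoprotein receptor (-1.19), and the amino acid transporter Slc7a5 (-1.08). The least changed were Slc7a11 (-0.01), Asns (-0.12) and Atf4 itself (-0.32), all within the cutoff. With miR-106b 1 was up and 1 down, and with miR-93 4 were up and 1 down, of 16, beside the shares of all genes just given for these mimics. Sesn2 and Ddit4 stood at 0.32 and 0.11 with miR-25. Whether other p53 target genes are also targets of ATF4 was not examined.

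**Figure D5:**
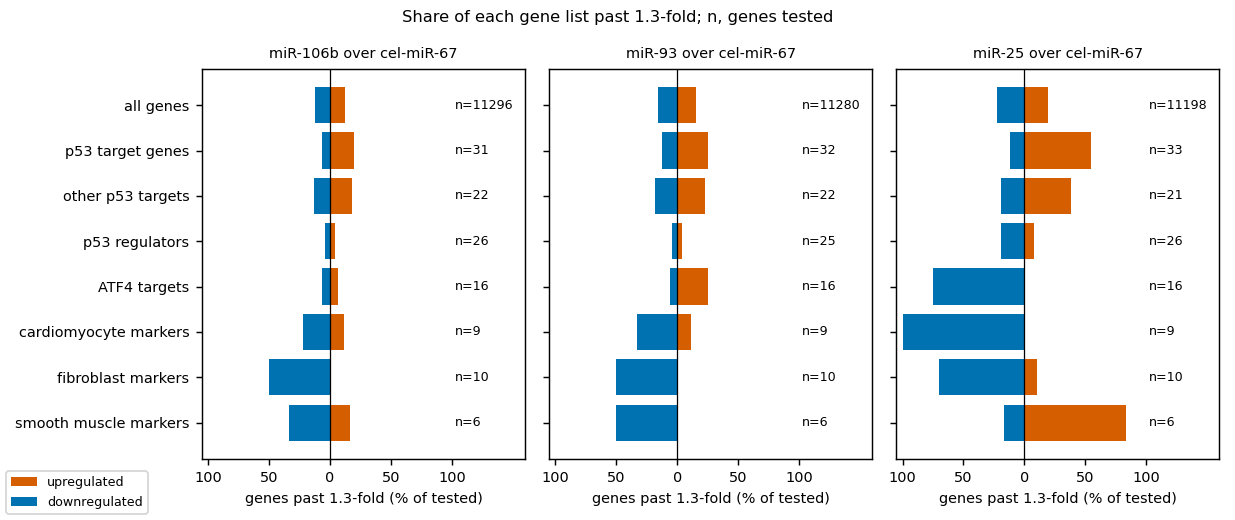
Share of each gene list past 1.3-fold for each mimic over the control, as percent of genes tested, with downregulated genes to the left and upregulated genes to the right of 0. n is the number of genes tested. In the miR-25 panel the p53 target genes reach 54.5% upregulated, beside 19.3% of all genes, and the ATF4 targets 75.0% downregulated.

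Cell markers moved in the same libraries. The 9 cardiomyocyte markers found, of 10 listed, were all present, and their summed level was 13212 RPKM in the control, 13306 for miR-106b, 10913 for miR-93 and 7133 for miR-25. Myl2 was the largest single part of this sum, at 6838 RPKM in the control, 7223 for miR-106b, 4994 for miR-93 and 3249.6 for miR-25. With miR-25 all 9 were downregulated, beside 22.6% of all genes tested. The largest fall was that of Tnni3, the cardiac troponin I gene, from 351 to 15.9 RPKM. This was 22.1-fold, while the other markers fell between 1.34-fold (Pln) and 2.45-fold (Ryr2). The 10 fibroblast markers summed to 899 RPKM in the control, 714 for miR-106b, 809.7 for miR-93 and 386 for miR-25. With miR-25 7 of them were down and 1 up, beside 22.6% and 19.3% of all genes. The 6 smooth muscle markers, which include contractile genes that immature heart muscle also uses, summed to 1392, 1152, 948 and 2913 RPKM in the same order. With miR-25 5 of them were up and 1 down, beside 19.3% and 22.6% of all genes. The endothelial markers (7 of 8 found, 17 to 20.9 RPKM) and the macrophage markers (8 of 8 found, 13.2 to 18.1 RPKM) were low in all libraries, and no marker found was at 0. The part of these marker changes in the levels of the p53 target genes was not tested.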

How the data were processed

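RNA from 4 cultures, 1 per mimic, was sequenced on an Illumina instrument from TruSeq libraries. Per the labels and the submitters' processing notes, reads were aligned with STAR 2.7 to Rnor 6.0 and processed with edgeR. The program that assigned reads to genes is not given in the sources used here. The authors deposited RPKM per gene and library, scaled to the library size.

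Whole reads were recovered from the smallest steps of the RPKM values (15731 of 15731 genes, within a relative deviation of 1e-06) and gave the 95% Clopper-Pearson intervals. With 1 library per mimic there is no test. The calculation was tested on simulated data. The RPKM and fold cutoffs (1.0 and 1.3) are those of the study's results text, and its methods give an RPKM cutoff of 2.0, used here as an alternative. The rule for naming genes was: every member past the cutoff with any mimic in full, the others by range, and the 3 largest rises and falls of each further list with miR-25. One gene that the rule also named is not reported here. The members and lists were chosen with earlier results of these data known. Other alternatives were centring on the median gene, fold cutoffs of 1.5 and 2, added pseudocounts (0.1 or 1) and scaling to the reads on listed genes. Calculations used pandas 2.3.3, scipy 1.17.1 and numpy 2.4.6 under Python 3.11.15, and plots were drawn with matplotlib 3.10.9.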

Additional observations from a re-analysis of the deposited data

How the results depend on the processing

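No p53 target gene changed sign over the control with miR-25 under centring on the median gene or scaling to the reads on listed genes (34 of 34 with the same sign). The other alternatives, the cutoffs and the pseudocounts, cannot change a sign. Centring on the median gene gave 19 up instead of 18 with miR-25 over the control (median 0.62). For miR-25 over miR-93 it gave 3 down instead of 4 (median 0.43), with the other counts and medians as before. For the alternatives that follow, only counts that changed by a factor of more than 1.5, or to 0, are given. Smaller changes are left out, such as the rises with miR-93 going from 8 to 6 at an RPKM cutoff of 2.0. At that cutoff the rises with miR-106b over the control went from 6 to 3. With no filter and a pseudocount of 0.1 RPKM the falls with miR-106b went from 2 to 4. With a pseudocount of 1 RPKM the falls were 1 with miR-106b, 3 for miR-25 over miR-106b and 2 for miR-25 over miR-93. At a fold cutoff of 1.5, miR-106b gave 2 up and 0 down, miR-93 3 up, miR-25 over miR-106b 3 down, miR-25 over miR-93 2 down and miR-93 over miR-106b 0 up and 2 down. At a fold cutoff of 2, miR-25 gave 9 up and 1 down over the control, 9 up and 1 down over miR-106b and 7 up and 1 down over miR-93. At that cutoff miR-93 gave 1 up and 1 down, and miR-106b, like miR-93 over miR-106b, 0 up and 0 down. Scaling to the reads on listed genes, chosen after seeing the data, gave 11 up and 1 down with miR-106b, 15 up with miR-93 and 3 down for miR-25 over miR-106b. The shares of all genes under these alternatives were not counted. The cause of the different share of listed reads was not tested. No paired analysis was possible because each mimic has 1 library, and leaving out a library was not possible for the same reason. Depth limits Ddb2, Tnfrsf10b, Plk3, Steap3 and Ddit4, with 25 to 127 reads each per library.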
